A study of Oryza sativa with 18 samples.

Results

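The comparison described here asks whether rice leaves without FKBP57 respond differently to salt, by taking the difference between 2 salt responses: that of an FKBP57 knockout line minus that of its wild type, the cultivar Ningjing 4. It used 12 of the 18 RNA-seq libraries of the series, 3 leaf libraries in each of 4 groups: wild type in normal nutrient solution, wild type after 4 hours of 150 mM NaCl, the FKBP57 knockout in normal solution, and the FKBP57 knockout after the same NaCl treatment. The remaining 6 libraries, from an FKBP73 knockout line, entered the fit for its estimate of spread and served to choose salt-responsive genes without looking at the 12. The labels give 1 knockout line per gene and state neither plant age nor the hour of harvest, so an effect of that line's own history, or of a different harvest time for the control plants, cannot be told apart from the effects of the gene and of salt. The replicates are biological per the series design. Of 37863 genes in the table, 25957 passed the filter on low counts and were tested.

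FKBP57 belongs to the FK506-binding proteins, enzymes that turn the peptide bond before proline and so help other proteins to fold, several of them as partners of the chaperone HSP90. Salt reaches a leaf first as water deficit and later as sodium. Water deficit raises abscisic acid, which through its receptors, phosphatases and kinases switches on genes of protective LEA proteins and dehydrins, while the SOS proteins at the plasma membrane export sodium. Growth, cell wall synthesis and photosynthesis are commonly turned down at the same time.

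The control libraries differed strongly among themselves before any comparison. A list of 6 cell division genes, markers of dividing cells, summed to 234, 168 and 27.8 CPM (counts scaled to a common library total) in wild-type control 1, 2 and 3, and to 43.8, 379 and 24.9 CPM in knockout control 1, 2 and 3. Under salt the sums were 20.3 to 23.5 CPM in wild type, and 21.3, 23.7 and 95.1 CPM in knockout salt 1, 2 and 3. High levels of these markers were thus seen in wild-type control 1 and 2, knockout control 2 and, less so, knockout salt 3. The 19 photosynthesis genes, which mark leaf tissue, summed to 11360 CPM in knockout control 2 against 52000 and 75713 CPM in the other knockout controls. Correlations of log2 CPM between replicates were lowest between knockout control 2 and 3 (0.844) and were 0.907 and 0.914 between wild-type control 3 and its replicates, against 0.943 to 0.979 within the salt groups. Of 4 root transporter genes, markers of root tissue, 2 passed the filter, with sums of 10.4 to 29.3 CPM, and 1 had no count in the 12 libraries. In bulk leaf RNA, fewer cells of a type and less RNA per cell cannot be told apart. Totals ran from 27601098 to 39894394 counts per library.

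No single gene passed the test of the difference in salt response. By the quasi-likelihood test of edgeR, 0 of 25957 genes had an adjusted p under 0.05 (0%), and the lowest adjusted p was 0.274. At an unadjusted p under 0.05 there were 1612 genes (6.21%), where 1298 would arise by chance, 927 of them with a negative difference (3.57%) and 685 with a positive one (2.64%). A limma fit that gives outlying libraries less weight also called 0 (0%), with 4301 genes at an unadjusted p under 0.05 (16.6%). DESeq2 called 26 genes (0.10%), 16 negative and 10 positive, with 2120 at an unadjusted p under 0.05 (8.17%). By DESeq2's own fit of wild type, 15 of its 26 were salt rises with a negative difference and 10 were salt falls with a positive one. The knockout change in these genes can be smaller, absent or opposite. The wild-type change enters the difference with a minus sign, which favours this split, so nothing is read from it. In 5 of the 26 at least 1 group had no count at all. The edgeR adjusted p of the 26 lay between 0.274 and 0.774.

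Across genes, the rise under salt tended to be smaller in the knockout. The FKBP73 knockout libraries are not part of the difference tested, so genes called for salt in them describe both responses without being selected on the 12 libraries, apart from the shared scaling and dispersion. Over the 2304 genes that rose there (8.88% of those tested), the median log2 fold change was 1.38 in wild type and 0.93 in the FKBP57 knockout, with a median difference of -0.43 and a middle range of genes from -0.75 to -0.12. Of these genes 1903 (82.6%) had a negative difference, against 53.5% of all genes tested. At an unadjusted p under 0.05, 369 (16.0%) were weaker in the knockout, against 3.57% of all genes, and 14 (0.608%) were stronger, against 2.64%. In all of the 25 alternatives tried the median stayed negative, between -0.54 and -0.29. Except in the fit of the 12 libraries alone, the FKBP73 knockout rises were called anew each time. The genes therefore differed between alternatives, with 5013 rises in the limma fit. Genes of a set are not independent of each other, and the set as a whole was not tested.

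The gap lay in the salt libraries. The mean of these 2304 genes, on a log2 CPM scale centred over the 12 libraries, was -0.82, -0.97 and -0.55 in wild-type control 1 to 3 and -0.81, -0.71 and -0.73 in knockout control 1 to 3. It was 1.0, 0.73 and 1.19 in wild-type salt 1 to 3 and 0.69, 0.66 and 0.30 in knockout salt 1 to 3. The controls of both genotypes overlapped, while every wild-type salt library stood above every knockout salt library, the nearest pair being 0.73 and 0.69. Gene by gene, the median difference between knockout and wild type was 0.05 in control and -0.38 under salt. The lowest of the salt libraries, knockout salt 3, was also the one with raised dividing-cell markers. Without it, over rises called anew, the median difference in response was -0.34.

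**Figure D1:**
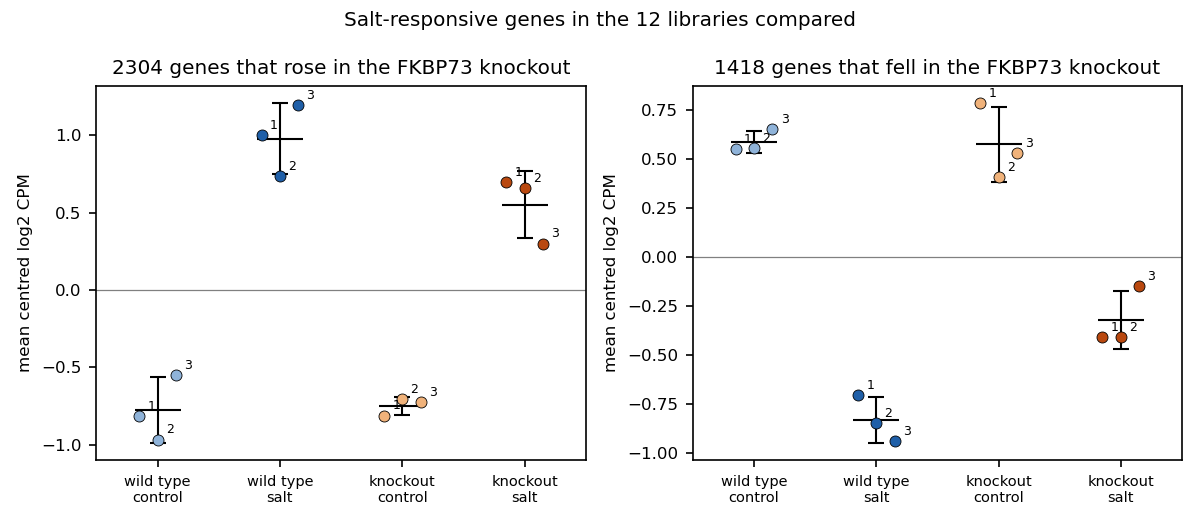
Mean centred log2 CPM of the genes called for salt in the FKBP73 knockout (left, 2304 that rose; right, 1418 that fell) in each of the 12 libraries, with replicate numbers, group mean (bar) and SD (whiskers, n = 3). The control groups overlap in both panels, and the knockout salt libraries lie closer to the controls than the wild-type salt libraries do.

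Falls also tended to be smaller in the knockout, but their median difference moved more between fits than that of the rises. Over the 1418 genes that fell in the FKBP73 knockout (5.46% of those tested), the median log2 fold change was -1.23 in wild type and -0.88 in the FKBP57 knockout, with a median difference of 0.37. A positive difference was found for 1092 of them (77.0%), against 46.5% of all genes, and 179 (12.6%) had it at an unadjusted p under 0.05, against 2.64%. Their centred means were -0.71, -0.85 and -0.94 in wild-type salt 1 to 3 and -0.41, -0.41 and -0.15 in knockout salt 1 to 3, which do not overlap. The controls, at 0.55 to 0.65 in wild type and 0.41 to 0.78 in the knockout, did. From the group means of these values the difference in response was 0.52 (SE 0.16, n = 3 per group), and -0.45 (SE 0.22) for the rises. Without knockout control 2, which had the highest dividing-cell markers and the lowest photosynthesis genes, the median difference was 0.15. It was 0.09 when outlying libraries were given less weight, over the 4671 falls called in that fit. Without wild-type control 3 and knockout control 2 it was 0.03. Falls were called anew in each of these fits, so a change of libraries and a change of genes cannot be told apart. The part of the dividing-cell markers in the smaller falls was not tested. With their level as a covariate, an alternative chosen after seeing the data, the median difference was 0.36, and -0.29 for the rises. These values are over genes called anew in that fit. The markers themselves fell with salt in wild type (5 of 6 called lower), so the covariate cannot separate their part from that of salt.

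**Figure D2:**
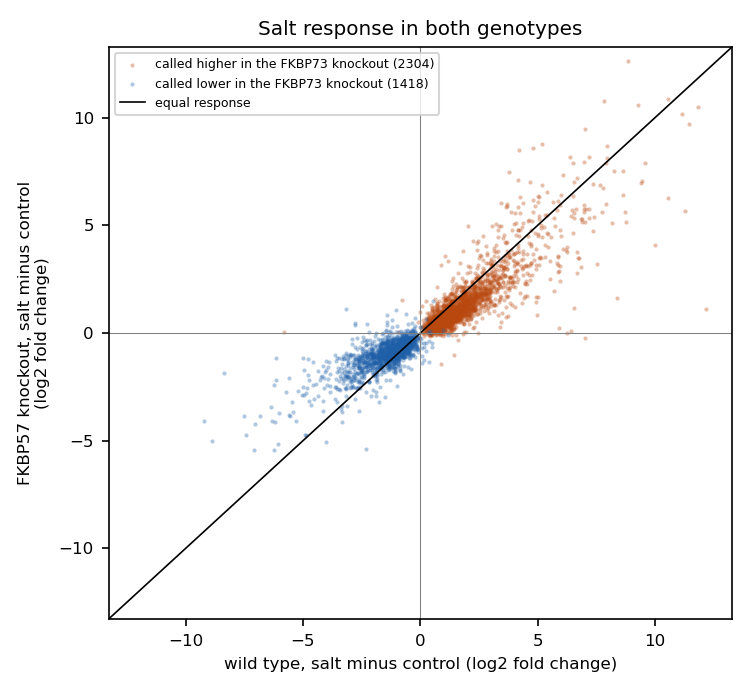
Log2 fold change for salt in wild type (x axis) and in the FKBP57 knockout (y axis) for each gene called for salt in the FKBP73 knockout, 2304 called higher and 1418 called lower. Points of both sets lie mostly on the side of the equal-response line nearer to 0 for the knockout, with medians of 0.93 against 1.38 for rises and -0.88 against -1.23 for falls.

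Starting from the genes called in wild type gives values in the same direction, but that choice favours a smaller value in the knockout, since these genes were picked for being large in 6 of the 12 libraries. Of 3539 wild-type rises (13.6% of those tested), the knockout's log2 fold change was under 0.25 of the wild-type value in 519, between 0.25 and 0.67 of it in 1686, between 0.67 and 1.5 in 1284 and above 1.5 in 50. Of 2825 wild-type falls (10.9%) these classes held 452, 1595, 766 and 12 genes. Among the genes under 0.25, where the change was absent or opposite in the knockout, 311 of 519 rises and 296 of 452 falls had an unadjusted p under 0.05 for the difference (backgrounds 3.57% and 2.64%), and 0 were called by edgeR. The ratio that defines the class holds that same difference, so nothing is read from these counts. Of 4933 genes called in wild type and not in the knockout, 4691 had a knockout value of the same sign, and 1911 had it at an unadjusted p under 0.05. A shared sign does not show that the change was present.

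The opposite choice, of genes called in the knockout, favours a smaller value in wild type. Of 1204 rises called in the FKBP57 knockout (4.64%), 859 had a wild-type fold change between 0.67 and 1.5 times the knockout's, 120 one between 0.25 and 0.67 times, 15 a smaller or opposite one and 210 a larger one. In this set the median was 1.89 in wild type and 1.64 in the knockout. For the 437 falls called in the knockout (1.68%) the medians were -1.19 in both genotypes, and a smaller fall was not seen in genes chosen in that way. No gene was called in opposite directions in both genotypes, and 210 genes were called for salt in the knockout alone. An unadjusted p under 0.05 for the difference was found for 51 of these 210 and for 976 of the 4933 called in wild type alone (19.8%), against 6.21% of all genes. Both sets were formed from calls that share libraries with the difference.

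The rule for printed genes took the smallest unadjusted p of the difference within 4 sets. The files and the reference table used here do not pair the identifiers with gene names, so no function is given for them. Among the wild-type rises that were smaller or absent in the knockout, Os10g0419400 had 1.95, 1.5 and 1.95 CPM in the wild-type controls and 54.9, 57.1 and 51.2 CPM under salt. In the knockout it had 3.81, 15.9 and 9.82 CPM in the controls and 38.9, 33.7 and 22.4 CPM under salt. It rose in both genotypes, from a higher and more variable starting level in the knockout. The knockout was higher than wild type in control by 2.45 on the log2 scale (edgeR adjusted p = 0.0108), and the salt rises were 4.92 (SE 0.43) and 1.68 (SE 0.37). Under salt the gap between knockout and wild type was -0.78 and did not pass the test (edgeR adjusted p = 0.495). In the FKBP73 knockout its salt rise was 3.79 (edgeR adjusted p = 4.5e-05). The difference between the FKBP57 knockout and wild-type responses was -3.23 (SE 0.53, edgeR adjusted p = 0.274). Without knockout control 1, the lowest of its group, the difference was -3.60 and passed the test (edgeR adjusted p = 0.0047), which is the 1 call made when single libraries were left out. Over the 24 alternatives its adjusted p ranged from 4.9e-05, by DESeq2, to 0.955 in the fit of the 12 libraries alone.

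Os08g0168000 had 13.5, 2.83 and 4.80 CPM in the wild-type controls and 173, 126 and 126 CPM under salt. In the knockout it had 6.40, 12.2 and 10.2 CPM in the controls and 2.85, 2.23 and 3.74 CPM under salt. Every wild-type salt library was above every wild-type control, and every knockout salt library was below every knockout control. The rise was 4.33 (SE 0.74) in wild type, the knockout value was -1.71 (SE 0.68, edgeR adjusted p = 0.16), and the difference was -6.03 (SE 1.0, edgeR adjusted p = 0.274, DESeq2 adjusted p = 1.4e-06). In the FKBP73 knockout its salt change was 0.50 and did not pass the test (edgeR adjusted p = 0.67). Under salt alone the FKBP57 knockout was lower than wild type by a log2 fold change of -5.59 (edgeR adjusted p = 0.0041).

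Of the wild-type falls, Os11g0180000 had 11.9, 10.1 and 19.4 CPM in the wild-type controls and 7.31, 6.0 and 8.23 CPM under salt, against 14.0, 10.3 and 13.7 CPM in the knockout controls and 24.1, 21.2 and 21.9 CPM under salt. The groups do not overlap within either genotype, and the directions are opposite. Its difference was 1.76 (SE 0.38, edgeR adjusted p = 0.774, DESeq2 adjusted p = 0.0142). Its salt change in the FKBP73 knockout, -0.04, did not pass the test (edgeR adjusted p = 0.94). Os07g0689600 had 7.85, 12.7 and 9.71 CPM in the wild-type controls and 1.17, 0.289 and 0.985 CPM under salt, against 9.15, 5.94 and 4.41 CPM and 2.65, 2.76 and 4.12 CPM in the knockout. Both genotypes had lower values under salt, wild type by a log2 fold change of -3.62 and the knockout by -1.03, with a difference of 2.59 (SE 0.57, edgeR adjusted p = 0.774, DESeq2 adjusted p = 0.0137).

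**Figure D3:**
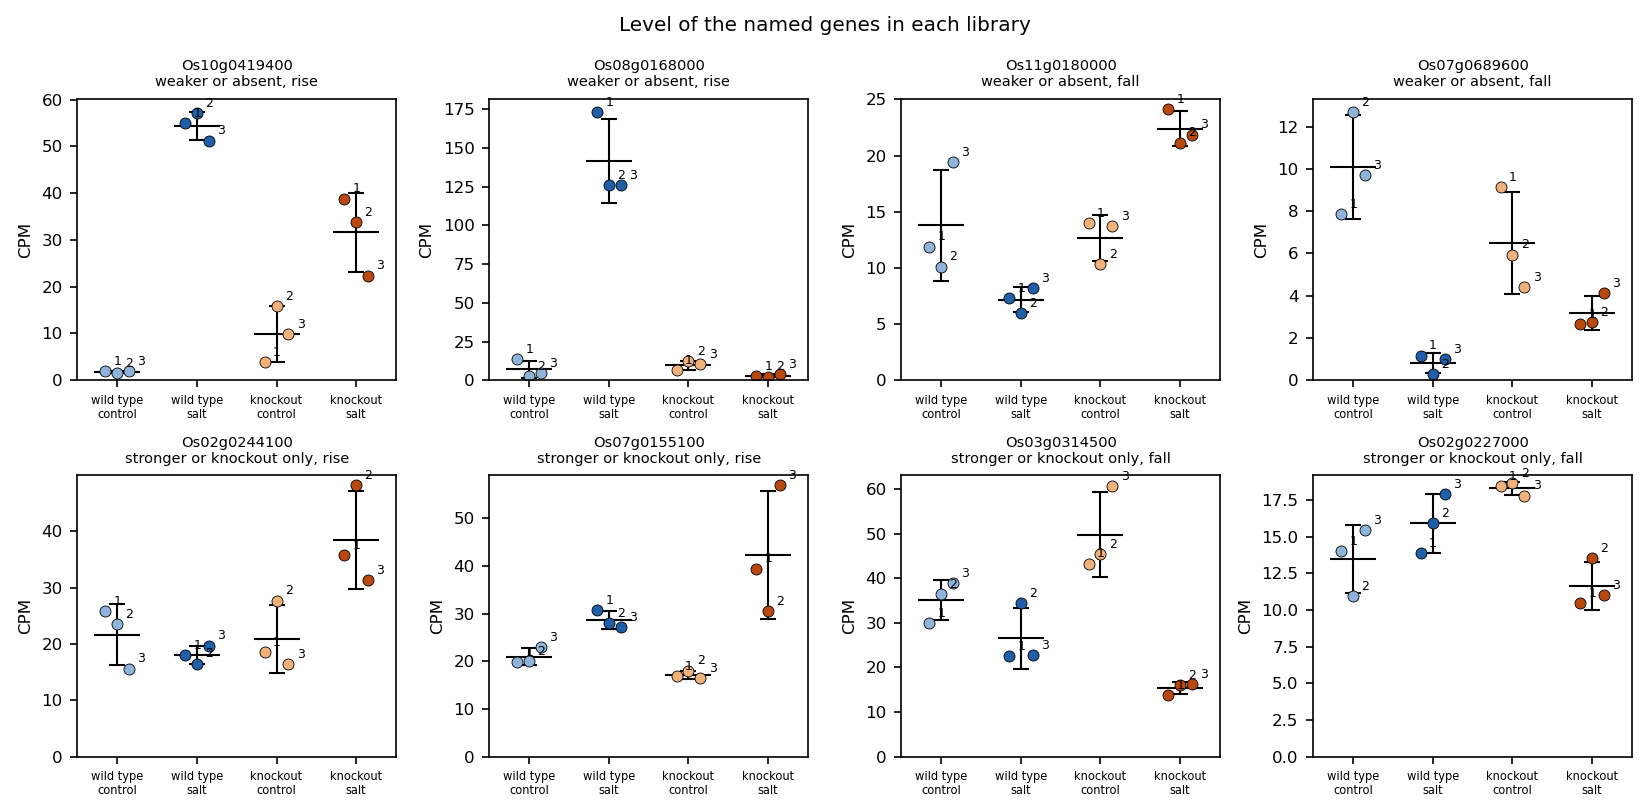
CPM of the 8 named genes in each of the 12 libraries, with replicate numbers, group mean (bar) and SD (whiskers, n = 3); each vertical axis starts at 0 and has its own scale. Os08g0168000 reached 126 to 173 CPM under salt in wild type and at most 3.74 CPM under salt in the knockout.

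The other class of printed genes held changes that were stronger in the knockout, or called in it alone. It required a salt call in the knockout, and the number of such calls ran from 745 to 7216 over the 24 alternatives. The number and size of changes were therefore not compared between the classes. Os02g0244100 had 15.6 to 25.8 CPM in the wild-type controls and 16.5 to 19.7 CPM under salt, and went from 18.6, 27.7 and 16.4 CPM to 35.8, 48.2 and 31.3 CPM in the knockout, a rise of 0.88 (SE 0.23, edgeR adjusted p = 0.0328). Its difference was 1.14 (SE 0.32, edgeR adjusted p = 0.774). Os07g0155100 rose in the knockout from 16.5 to 18.1 CPM in the controls to 39.5, 30.6 and 57.0 CPM. In wild type it went from 19.9 to 23.0 CPM up to 27.2 to 30.7 CPM. Its difference was 0.85 (SE 0.27, edgeR adjusted p = 0.774), and 0.58 without knockout salt 3. Its rise in the FKBP73 knockout, 0.67, was called too (edgeR adjusted p = 0.0275). Of the falls, Os03g0314500 went from 43.3, 45.4 and 60.7 CPM to 13.9, 16.1 and 16.2 CPM in the knockout and from 30.0, 36.4 and 38.9 CPM to 22.5, 34.4 and 22.7 CPM in wild type. That is a fall of -1.69 (SE 0.20) against -0.40 (SE 0.20, edgeR adjusted p = 0.141). Its difference was -1.29 (SE 0.28, edgeR adjusted p = 0.774, DESeq2 adjusted p = 0.017). Its salt change in the FKBP73 knockout, -1.46, was called too (edgeR adjusted p = 0.0003). Os02g0227000 had 10.9 to 15.5 CPM and 13.9 to 17.9 CPM in wild type, against 17.8 to 18.7 CPM and 10.5 to 13.5 CPM in the knockout, with a difference of -0.89 (SE 0.24, edgeR adjusted p = 0.774).

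Gene lists by identifier, taken from knowledge of rice genes and not from a table used here, were read for the same difference. Lists and members were chosen with earlier results of these data known. Their counts, beside the shares of all genes, are therefore a description and not a test. There were 19 lists with 206 identifiers, of which 195 were tested, and edgeR called no member of any list for the difference. The median difference of all genes tested was -0.05, with 53.5% negative and 46.5% positive. Of all genes, edgeR called 13.6% higher and 10.9% lower by salt in wild type, and 4.64% higher and 1.68% lower in the knockout. These shares are the backgrounds for the list counts below.

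Jasmonate genes had mostly negative differences. Jasmonate is the hormone of wounding and also takes part in osmotic stress, and the list holds enzymes of its synthesis, the transcription factor MYC2 and the JAZ repressors, which jasmonate removes and then induces. Of 13 tested members, 8 rose in wild type and none fell, while 3 rose and 1 fell in the knockout. The difference was negative in 12 of 13 (background 53.5%), from -1.76 to 0.35 over genes with a median of -0.82. At an unadjusted p under 0.05 it was negative in 4 members (background 3.57%). The mean log2 CPM of the list was 3.58, 3.17 and 3.94 in the wild-type controls and 5.09, 4.75 and 5.26 under salt. It was 4.26, 3.61 and 3.86 in the knockout controls and 4.44, 4.84 and 4.22 under salt. Wild-type salt libraries were all above the wild-type controls by more than the spread within groups, while knockout salt 3 lay below knockout control 1. The median stayed negative under all 24 alternatives, from -1.30 without wild-type control 3 and knockout control 2 to -0.55 with the dividing-cell markers as a covariate.

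Chlorophyll breakdown genes also had negative differences. These genes dismantle chlorophyll in ageing or stressed leaves. Of 6 tested, 5 rose in wild type and 1 in the knockout, with median log2 fold changes of 1.53 and 0.63. The difference was negative in 6 of 6 (background 53.5%), from -1.22 to -0.50, with a median of -0.98. At an unadjusted p under 0.05 it was negative in 2 members (background 3.57%). Mean log2 CPM was 5.61, 5.35 and 6.28 in the wild-type controls, 7.35, 6.82 and 7.70 in wild type under salt, 5.80, 5.57 and 6.45 in the knockout controls and 6.70, 7.05 and 6.05 in the knockout under salt. Again knockout salt 3 was within the range of its controls. The median difference was -0.61 without knockout control 3, -0.63 with the dividing-cell markers as a covariate and -1.44 without wild-type control 3 and knockout control 2.

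Cellulose synthesis moved in the other direction, as a fall that was smaller in the knockout. The secondary wall list, cellulose synthases of fibre and vessel walls and a COBRA-like protein of cellulose assembly, had 3 of 4 members called lower in wild type and 0 called in the knockout by edgeR. Median log2 fold changes were -1.40 and -0.15. All 4 differences were positive, from 0.72 to 1.31 with a median of 1.13, and 3 had an unadjusted p under 0.05 (background 2.64%). Mean log2 CPM was 3.88, 3.76 and 4.55 in the wild-type controls and 3.29, 2.19 and 2.72 under salt, against 4.16, 3.57 and 3.76 in the knockout controls and 3.84, 3.60 and 3.28 under salt. Wild type separated its groups and the knockout did not. Of the 6 primary wall cellulose synthases, which act in growing cells, 4 fell in wild type and 0 were called in the knockout, and all 6 differences were positive, with a median of 0.64 and 1 member at an unadjusted p under 0.05. The primary wall median was 0.27 without the 3 libraries that an earlier look at these data had set apart by eye (wild-type control 3, knockout control 3 and knockout salt 3) and 0.39 without knockout control 3, and dividing-cell markers moved in the same direction.

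**Figure D4:**
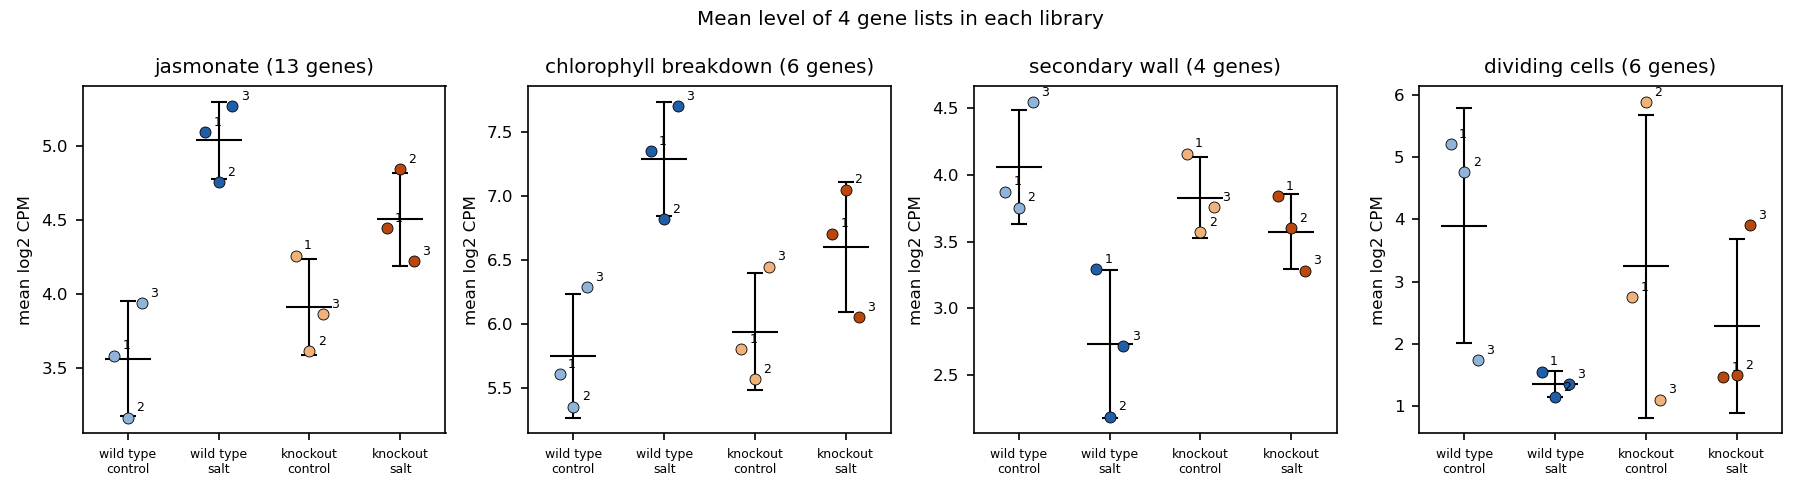
Mean log2 CPM of 4 gene lists in each of the 12 libraries, with replicate numbers, group mean (bar) and SD (whiskers, n = 3). Jasmonate and chlorophyll breakdown genes separate control from salt in wild type and overlap in the knockout, and the dividing-cell list spans 1.73 to 5.22 in wild-type controls and 1.10 to 5.89 in knockout controls.

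Nearly all LEA and dehydrin genes rose in both genotypes. All 11 tested LEA and dehydrin genes rose in wild type and 10 in the knockout, with median log2 fold changes of 4.72 and 5.10. Their difference was positive in 6 and negative in 5, with a median of 0.38 that became -0.12 once the 1 gene without counts in a group was set to a floor of 3 counts over that group, and -0.74 without wild-type control 3. Of 30 abscisic acid signalling genes 18 rose and 2 fell in wild type, and 13 rose and 1 fell in the knockout, with a median difference of 0.03 and 1 member at an unadjusted p under 0.05. Heat shock genes had 5 of 10 called higher in each genotype and medians of 1.78 in both. The sign of these 3 medians was not kept under all 24 alternatives: abscisic acid signalling ran from -0.29 to 0.16, and heat shock from -0.22 to 0.66.

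Stress regulators and transporters had mostly negative differences, and none passed the test. Of 12 stress transcription factors of the NAC, DREB and HD-Zip families, 9 rose in wild type and 8 in the knockout, 10 of 12 differences were negative (background 53.5%), and 2 had an unadjusted p under 0.05 (background 3.57%), with a median of -0.36. This median was -0.15 without knockout control 3 and -0.76 without wild-type control 3. For 8 genes of abscisic acid synthesis and breakdown, 5 and 4 rose and the median difference was -0.47, or -1.09 without wild-type control 3. For 19 genes of the SOS pathway and of sodium and potassium transport, 7 rose in wild type and 3 in the knockout, and 14 differences were negative. The SOS list's median was -0.23, from -1.56 to 4.03 over genes, and 0 members had an unadjusted p under 0.05. Its mean log2 CPM was 2.95 ± 0.31 (SD, n = 3) in wild-type control, 3.53 ± 0.27 in wild-type salt, 2.87 ± 0.43 in knockout control and 3.40 ± 0.19 in knockout salt. The step was 0.57 in wild type and 0.53 in the knockout, a gap smaller than the spread between replicates.

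The other lists gave little. Dividing-cell genes had a median of 1.93, with 5 of 6 called lower in wild type and 0 in the knockout, but none had an unadjusted p under 0.05. This median rested on single libraries: it was 0.09 without knockout salt 3, 4.36 without knockout control 2 and -0.04 with the markers' own level as a covariate. Their mean log2 CPM varied among the controls by more than between genotypes. Medians lay between -0.36 and 0.20 for photosynthesis, antioxidant enzymes, osmolyte metabolism, nitrogen assimilation, PIP aquaporins, type-A cytokinin response regulators, root markers and the circadian clock, and 1 member of these lists, a root marker, had an unadjusted p under 0.05. Scaling by library size alone, which moves the median of all genes by 0.156, made the photosynthesis, nitrogen, aquaporin, osmolyte and clock medians positive. The clock genes, which follow the hour of harvest, had a median difference of -0.08 and 0 of 9 members at an unadjusted p under 0.05. Their salt changes in wild type ran from -0.79 to 1.19, so opposite shifts can cancel in a median. A shift of hour shared by both genotypes drops out of the difference. The hour of harvest was thus not tested by these genes, whose sums ran from 1371 to 4768 CPM among the knockout controls.

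**Figure D5:**
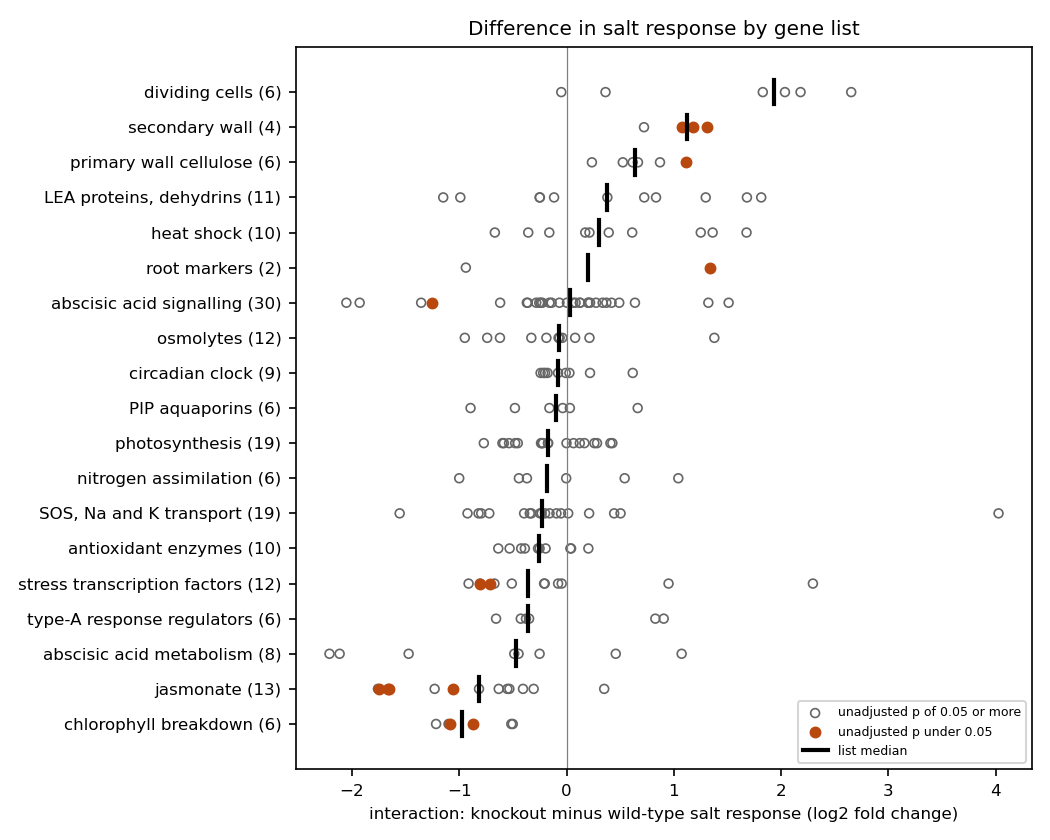
Difference in salt response (FKBP57 knockout minus wild type, log2 fold change) of each tested member of 19 gene lists; filled points have an unadjusted p under 0.05, bars are list medians and the number of tested genes is in parentheses. Jasmonate and chlorophyll breakdown genes lie mostly on the negative side (left of 0) and wall genes on the positive side, and no member passed the adjusted threshold.

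The number of genes past a threshold changed with single libraries, controls and salt libraries alike. Leaving out wild-type control 3 and knockout control 2, the controls farthest from their groups, edgeR called 2692 of 26305 genes (10.2%), 1082 negative and 1610 positive. Of these calls 798 were wild-type rises with a negative difference and 1458 were wild-type falls with a positive one. Another 2 were wild-type rises with a positive difference, 1 was a wild-type fall with a negative one, and 433 were not called in wild type. The difference holds the wild-type change with a minus sign, which favours this split. Only 477 of the 2692 had an unadjusted p under 0.05 in the fit of all libraries. In that fit 5 of 13 jasmonate genes, 2 of 6 chlorophyll breakdown genes, 3 of 32 abscisic acid signalling genes and 2 of 12 stress factors were called negative, against 1082 of all 26305 genes. Of 11 LEA and dehydrin genes, 19 SOS list genes and 19 photosynthesis genes, 0 were called in either direction. Of 4 secondary wall and 6 primary wall genes 0 were called too, with medians of 0.75 and 0.89, against 1610 positive calls among all genes. The omission leaves the 2 wild-type controls with 168 and 234 CPM of dividing-cell markers against the 2 knockout controls with 24.9 and 43.8 CPM, and 5 of 6 dividing-cell genes were called positive, with a median of 4.78. It also takes out the libraries that set the spread, so the dispersion fell from 0.142 to 0.0875 by construction. With the dividing-cell level as a covariate in all 18 libraries the dispersion was 0.0705, edgeR called 0 genes, and 2218 had an unadjusted p under 0.05. Without knockout control 2 alone 4624 genes had an unadjusted p under 0.05, and without wild-type control 3 alone 2916. The number was 1069 without wild-type control 2, 994 without wild-type salt 3 and 794 without knockout salt 3, all below the 1298 that chance would give over 25957 genes.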

How the data were processed

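The values are raw read counts per gene and library, deposited by the authors as 1 table. Tools listed by the submitters' processing notes are fastp 0.22.0 and HTSeq 0.9.1, on build IRGSP-1.0. No source used here gives the aligner, annotation release or strand setting, so overlapping, antisense or near-identical genes may share reads. The reference table (assembly ASM3414082v1) held 1 of the 37863 identifiers, so genes are not named, the FKBP57 gene was not checked at its own locus, and no sequences are shown.

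Genes were filtered with filterByExpr (minimum count 10, minimum total 15), which kept 99.97% of counts. All 18 libraries were scaled by TMM and fitted in edgeR 4.0.16 (R 4.3.3) with 6 group means and 12 residual degrees of freedom. Contrasts were tested by the quasi-likelihood F test, with Benjamini-Hochberg adjustment over all tested genes and a threshold of 0.05. CPM values use TMM-scaled totals, and log2 CPM a prior count of 2. Standard errors come from the F statistics. The test was tested on simulated data. Alternatives used DESeq2 1.42.0 and limma 3.58.1 (voom with library quality weights), other scaling and filters, only the 12 libraries compared, a replicate block, and left-out libraries, including 2 sets of libraries (the 2 controls farthest from their groups, and 3 set apart by eye) taken from an earlier look at these data. The dividing-cell covariate was chosen after seeing the data. Printed genes are the 2 with the smallest unadjusted p of the difference, with a group mean of 10 CPM or more, among rises and among falls, in 2 classes: called in wild type with a difference against that change, and called in the knockout with a difference along its change. Members and lists were chosen with earlier results of these data known.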

Additional observations from a re-analysis of the deposited data

Results flagged for a closer look

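In 2 of the 8 printed genes every library of one genotype moved against every library of the other. For Os08g0168000 all wild-type salt libraries were above the wild-type controls and all knockout salt libraries below the knockout controls, with a difference of -6.03 on the log2 scale. For Os11g0180000 the directions were the other way round, with a difference of 1.76. In the FKBP73 knockout the salt changes of Os08g0168000 and Os11g0180000 were 0.50 and -0.04. Neither passed the test there (edgeR adjusted p = 0.67 and 0.94), which does not show that the change was absent. Os08g0168000 had 21.3, 6.49 and 2.30 CPM in the FKBP73 knockout controls and 23.5, 10.7 and 8.24 CPM under salt. The difference in response between the FKBP73 knockout and wild type was not tested for these genes. The test of the difference across all genes did not call either by edgeR (adjusted p = 0.274 and 0.774) and called both by DESeq2 (adjusted p = 1.4e-06 and 0.0142). Both genes had been chosen for a small unadjusted p of that difference.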

How the results depend on the processing

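The medians over genes called for salt in the FKBP73 knockout kept their sign under all 25 alternatives. Those genes were called anew in every fit but that of the 12 libraries alone. The count of called differences, 0 with all libraries, became 1, 26 and 2692 under 3 of 24. Leaving out 1 library in turn gave 0 to 1 called differences and 794 to 4624 at an unadjusted p under 0.05, 3093 to 8456 salt calls in wild type and 745 to 2974 in the FKBP57 knockout. The numbers of genes with a weaker or absent change ran from 1074 to 2861 for wild-type rises (2205 with all libraries), from 723 to 3242 for wild-type falls (2047), from 857 to 1392 for FKBP73 knockout rises (1134) and from 480 to 994 for its falls (652). The median difference ran from -0.54 to -0.34 for those rises and from 0.15 to 0.45 for those falls. DESeq2 gave 26 called differences, 2987 knockout salt calls and 1048 weaker FKBP73 knockout falls. The limma fit with quality weights gave 4301 differences at an unadjusted p under 0.05, 7216 knockout salt calls, 3213 weaker wild-type falls, 2321 and 1679 weaker FKBP73 knockout rises and falls, and a fall median of 0.0905. A mean of at least 5 CPM left 996 differences at an unadjusted p under 0.05. Only the 12 libraries compared gave 982 of these, 3655 and 885 salt calls in wild type and knockout, and 1236 and 1020 weaker wild-type rises and falls. Without the 3 libraries set apart by eye there were 4695 knockout salt calls. Without wild-type control 3 and knockout control 2 there were 2692 called differences, 8219 at an unadjusted p under 0.05, 9882 and 3794 salt calls, 3742 and 4146 weaker wild-type rises and falls, 1795 and 1053 weaker FKBP73 knockout rises and falls, and a fall median of 0.0287. With dividing-cell markers as a covariate there were 3495 knockout salt calls and 1780 weaker FKBP73 knockout falls. Choosing FKBP73 knockout calls at 0.01 left 480 and 209 weaker rises and falls. Except where stated, the cause was not tested. Same-numbered replicates did not deviate together as a rule: 5 of 18 pairs had a correlation over 0.1. The control pairs of wild type and knockout had 0.73 for number 3 and 0.45 for number 2, while wild-type and knockout control 3 had -0.66 and -0.53 with knockout salt 3. With the replicate number as a block there were 0 called differences, 1461 at an unadjusted p under 0.05, and medians of -0.43 and 0.38.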
